A study of Homo sapiens with 6 samples.

Results

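The genes described here are 44 genes of protein folding, quality control and stress sensing in the endoplasmic reticulum (ER), among the 58233 Ensembl gene identifiers of the series. They were chosen by symbol, with earlier results of these data known, and each symbol matched 1 identifier. In all, 43 of them were among the 13028 genes that passed the filter on low counts. The exception was TXNDC5, a disulfide isomerase gene with 2 to 10 counts per library, whose exons overlap those of a neighbouring gene. Messenger RNA was sequenced in OCI-AML2, a human cell line established from acute myeloid leukemia, in 3 libraries with the genotype label IKZF1-ko, a CRISPR knockout of the gene of the transcription factor Ikaros, and in 3 with the label NT control, for a non-targeting control. All 6 libraries come from this cell line, and no drug treatment is labelled for any of them. The design text speaks of 3 lines per group and the extraction protocol of knockout and parental cells in triplicate. Whether the replicates were separately edited lines, clones or repeat extractions is thus unclear, and the p-values reflect spread among libraries that may be no more than technical.

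The ER is where secreted and membrane proteins fold. Calreticulin and calnexin hold glycoproteins by their sugars, BiP and GRP94 hold exposed protein stretches, and disulfide isomerases pair cysteines. Proteins that fail to fold are moved to the cytosol and degraded. When unfolded proteins build up, the membrane sensors IRE1, ATF6 and PERK start the unfolded protein response, in which ATF6 and the spliced form of XBP1 raise chaperone and degradation genes, and PERK acts through ATF4 and CHOP. In myeloid neoplasms CALR is also known as a gene that carries driver mutations, which gene counts do not show.

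Total counts per library were 15250588 to 18214328 in IKZF1-ko and 11300519 to 14983528 in NT control. The targeted gene IKZF1 had 420, 426 and 436 CPM (counts scaled to a common library size) in IKZF1-ko replicates 1, 2 and 3, against 331, 291 and 334 CPM in NT control replicates 1, 2 and 3. Its mRNA was thus not lower in the libraries labelled IKZF1-ko. In edgeR it rose with the library-set term (log2 fold change 0.43, adjusted p = 1.23e-05) and in the 4 libraries (0.37, adjusted p = 1.07e-07). On group alone it was not called (0.42, adjusted p = 0.606). Gene counts show neither an edit nor the protein, and every direction below is that of the libraries so labelled. IKZF1-ko replicate 1 and NT control replicate 2 stood apart from the other 4 libraries on the first principal component, which held 67.6% of the variance. No label names a batch that these libraries share. The summed level of 15 low-oxygen marker genes was 10430 CPM in IKZF1-ko replicate 1 and 10110 CPM in NT control replicate 2, against 6970 to 7090 CPM in the other IKZF1-ko libraries and 6642 to 6781 CPM in the other NT control libraries. Markers of the myeloid leukemia line summed to 718 to 827 CPM in IKZF1-ko and 787 to 877 CPM in NT control, with ANPEP under 1 CPM in all 6. Of the 5 tested myeloid markers LYZ fell with the library-set term (log2 fold change -0.36, edgeR adjusted p = 1.23e-04), and of 2 tested fibroblast markers PDGFRB rose (0.53, adjusted p = 8.03e-04), as both did in the 4 libraries and with the surrogate variable. Of 14 tested low-oxygen markers 4 rose with the library-set term (VEGFA, BNIP3, NDRG1 and P4HA1) and 0 fell, where 6.93% of all tested genes rose. Only VEGFA was also called with the surrogate variable (0.37, edgeR adjusted p = 0.00426), where BNIP3 (-0.08) and NDRG1 (-0.07) changed sign. In the 4 libraries BNIP3 was not called (adjusted p = 0.133), and ALDOA rose (0.17, adjusted p = 0.00704). The part of these marker changes in the results on the ER genes was not tested. Plasma cell markers, which would mark cells with a large ER, were at 0 for 3 of 5 genes and summed to at most 1.27 CPM in IKZF1-ko and 2.11 CPM in NT control. All 5 erythroid and 4 of 5 epithelial markers were at 0, T cell markers summed to at most 0.218 and 1.05 CPM, B cell markers to 12.4 to 16.5 and 11.8 to 13.7 CPM, and fibroblast markers to 20.6 to 52.5 and 13.7 to 37.8 CPM in IKZF1-ko and NT control.

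In the library-set fit described below, most of the tested chaperone and folding enzyme members had less mRNA in the libraries labelled IKZF1-ko. Most degradation members and all of the sensor members did not pass the test there. This holds for the members alone, since 1 of 24 tested other ER folding genes fell in that fit (4.17%). On group alone 0 of 43 members were called. CALR stood out, at 906 to 1125 CPM in IKZF1-ko against 1596 to 1938 CPM in NT control. With a term for the library set (the libraries that stand apart or the other 4) beside the group, edgeR's quasi-likelihood test called 17 of the 43 tested members lower and 1 higher in IKZF1-ko at an adjusted p under 0.05. Of all tested genes, that fit called 6.62% lower and 6.93% higher. Because the members were chosen with earlier results of these data known, this comparison of shares is a description. Of 22 folding members (lectin cycle, HSP70 and HSP90 system, folding enzymes), 13 fell and 1 rose. Of 12 degradation members 2 fell, of 5 sensors 0 changed, and of 4 translocon members 2 fell. The median log2 fold change was -0.19 for the folding members, -0.10 for degradation, -0.002 for the sensors and -0.17 for the translocon, beside 0.002 for all tested genes. The members that fell were 1.11 to 1.74-fold lower, and at most 1.38-fold lower without CALR. In bulk RNA, fewer cells of a type and less RNA per cell cannot be told apart. Differences between these role groups were described and not tested. The library-set term was chosen after earlier results of these data, in which the fit on group alone called 0 genes, were known. The sets were defined from the same counts, so these p-values take them as known. A definition without the 44 members gave the same sets, and therefore the same 17 and 1 calls. So few of the 13028 tested genes could hardly change the sets, so this does not make the p-values independent of them.

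The library-set term matters for the calls. In the edgeR fit on group alone, which is the comparison the series states, 0 of 43 members and 0% of all tested genes were called in either direction, and 4 members (CALR, PPIB, CRELD2 and EDEM2) had an unadjusted p under 0.05, all of them lower, where 3.5% of all tested genes did so in either direction and 1.21% were lower. DESeq2 on group alone called CALR alone among the members, where it called 0.0998% of all tested genes lower and 0.445% higher. With limma-voom 0 members were called, where 0% of all genes were called lower and 0.00768% higher. In the 4 libraries without those that stand apart, edgeR called 17 members lower and 3 higher, where 7.1% and 7.64% of all genes were called. In these 4 libraries both of IKZF1-ko had more counts than both of NT control, and the part of depth in these calls was not tested. Of the 17 members called lower with the library-set term, 16 were also called lower in the 4 libraries, and 14 both there and with a surrogate variable (an estimate of unlabelled variation) in place of the set term. With the surrogate variable 15 members fell and 0 rose, where 3.53% and 4.38% of all genes were called. Without IKZF1-ko replicate 3 the library-set fit called 10 members lower, where 2.59% of all genes were called.

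**Figure D1:**
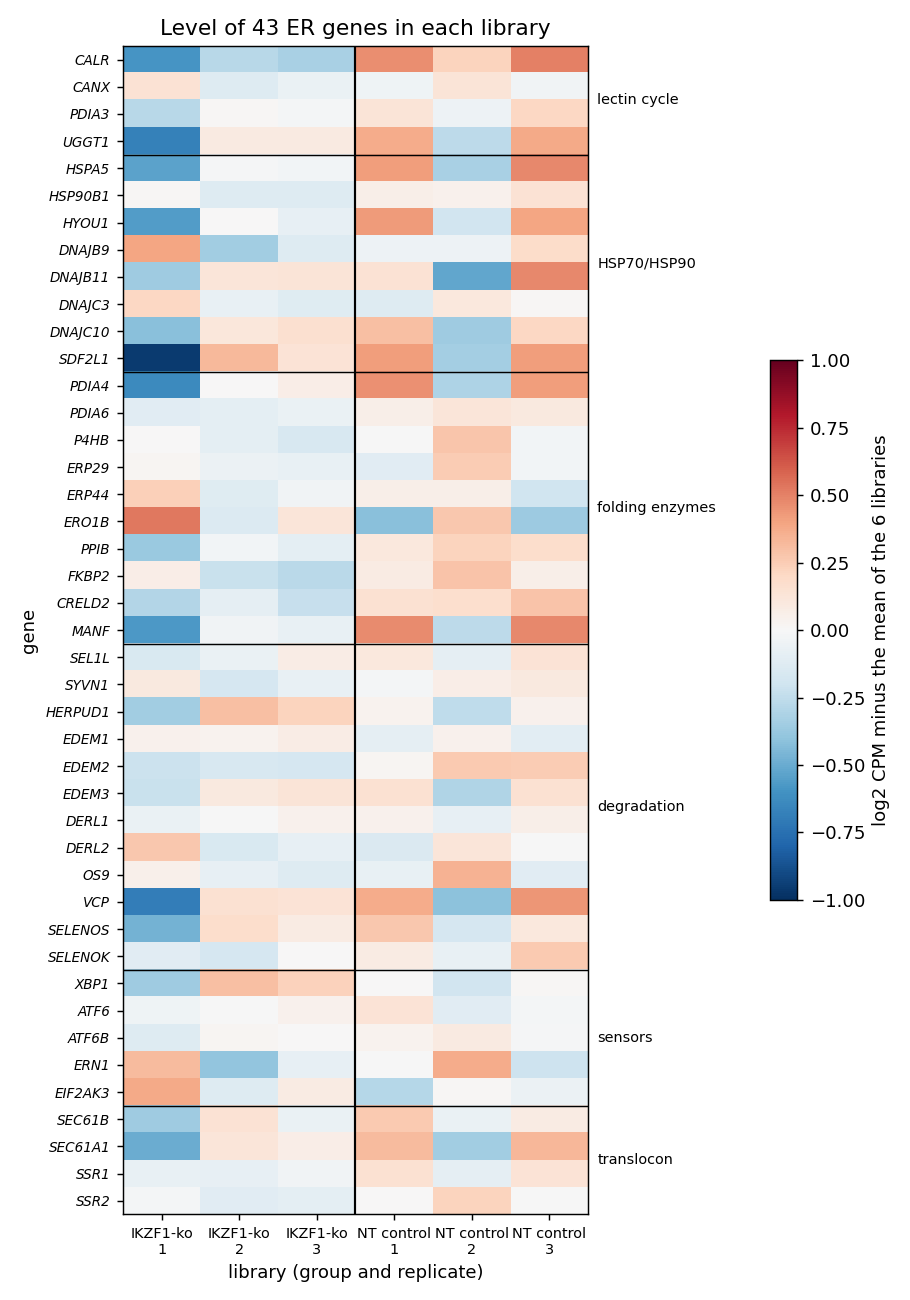
Level of the 43 tested members in each library, as log2 CPM minus the mean of the 6 libraries (colour), with genes in rows by role and libraries in columns, IKZF1-ko left of NT control. CALR is blue in all 3 IKZF1-ko columns and red in all 3 NT control columns, and many folding genes are also low in IKZF1-ko replicate 1 and NT control replicate 2.

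These genes also differed between the libraries that stand apart and the others, as genes in general did. In 23 of 43 members both IKZF1-ko replicate 1 and NT control replicate 2 lay below the mean log2 CPM of the other 2 libraries of their group, and in 13 members both lay above it. The shares of all tested genes that did so were not counted. Over all tested genes, the deviations of these 2 libraries from their group means had a correlation of 0.824. Such shared shifts are thus not particular to the members. For the HSP70 and HSP90 system, the mean log2 level relative to the 6 libraries was -0.28, -0.001 and -0.009 in IKZF1-ko replicates 1, 2 and 3 and 0.20, -0.20 and 0.29 in NT control replicates 1, 2 and 3. The groups overlapped there, because NT control replicate 2 was under IKZF1-ko replicates 2 and 3. All IKZF1-ko libraries lay below all NT control libraries for 7 of 43 members, as for 4.05% of all tested genes, and above them for 0 members, as for 5.3% of all. The 7 were CALR, HSP90B1, PDIA6, PPIB, CRELD2, EDEM2 and SSR2. Within the 4 libraries, both IKZF1-ko libraries lay below both NT control libraries for 27 of 43 members (27% of all genes) and above for 4 (27.7% of all genes). In the pair that stands apart, which gives no test, IKZF1-ko replicate 1 was below NT control replicate 2 in 30 of 43 members, as in 49.9% of all genes. Of the 17 members that fell in the 4 libraries, 16 were lower in that pair too, and SSR1 was not, where this held for 87.7% of all genes that fell in the 4 libraries.

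Promoters of some ER chaperone genes are known to carry elements that ATF6 and XBP1 bind. The ER stress response element ERSE is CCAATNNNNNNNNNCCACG, and its relative ERSE-II is ATTGGNCCACG, and both were searched on both strands of the RefSeq promoter windows (GRCh38.p14, 250 bases before to 50 after each start), which held 42 of the 44 members. An ERSE was found in 7 of 42 members (16.7%), against 27 of 35116 promoters of all genes (0.0769%), and an ERSE-II in 3 of 42 (7.14%), against 19 of 35116 (0.0541%). The short core CCACG, part of both elements, was in 66.7% of members and 38.1% of all promoters. Either longer element was in 5 of 16 members that fell with the library-set term and a window, in 4 of 24 that were not called and in the 1 that rose. Elements thus stood in front of genes that fell, genes that rose and genes not called. The following stretches show each element found, from 5′ to 3′ on the strand of the gene, with both conserved ends of the element in capitals. An element read on the other strand starts with CGTGG here, and one on the strand of the gene ends with CCACG.
CALR, chr19:12938379-12938407, plus strand: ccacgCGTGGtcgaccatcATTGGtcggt
CANX, chr5:179698773-179698801, plus strand: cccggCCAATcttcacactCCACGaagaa
HSPA5, chr9:125241386-125241414, minus strand: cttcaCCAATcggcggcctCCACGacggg
HSP90B1, upstream element, chr12:103930211-103930239, plus strand: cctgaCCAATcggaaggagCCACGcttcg
HSP90B1, downstream element, chr12:103930316-103930344, plus strand: gggtgCGTGGtgcggcgcgATTGGtgggt
HYOU1, upstream element, chr11:119057375-119057395, minus strand: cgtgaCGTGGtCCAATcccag
HYOU1, downstream element, chr11:119057269-119057289, minus strand: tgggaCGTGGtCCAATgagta
SDF2L1, chr22:21642109-21642129, plus strand: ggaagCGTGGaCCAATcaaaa
CRELD2, chr22:49918549-49918577, plus strand: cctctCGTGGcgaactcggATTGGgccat
ERO1B, chr1:236282178-236282206, minus strand: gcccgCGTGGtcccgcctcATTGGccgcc
HERPUD1, chr16:56932020-56932040, plus strand: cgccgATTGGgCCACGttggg
XBP1, chr22:28800598-28800626, minus strand: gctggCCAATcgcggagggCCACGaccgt
The element of CALR ended 207 bases before the start, and those of HSPA5, CRELD2 and XBP1 ended 48, 62 and 34 bases before theirs. A match of letters in a window is a description and does not show binding in these cells.

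In the lectin cycle, 3 of 4 genes fell and 0 rose. CALR (ENSG00000179218, GRCh38 chromosome 19, 12938578 to 12944489, plus strand) encodes calreticulin, a soluble chaperone of glycoproteins that also buffers calcium. It had 906, 1125 and 1091 CPM in IKZF1-ko replicates 1, 2 and 3, against 1890, 1596 and 1938 CPM in NT control replicates 1, 2 and 3. The groups did not overlap, and the means were 1041 ± 118 and 1808 ± 185 CPM in IKZF1-ko and NT control (SD, n = 3 each). With the library-set term edgeR gave a log2 fold change of -0.80 (SE 0.042, adjusted p = 1.47e-09), a 1.74-fold lower level, and -0.79 (adjusted p = 1.4e-14) in the 4 libraries. In the pair that stands apart the difference was -0.82 on the log2 scale. On group alone it was -0.80 with an edgeR adjusted p of 0.31, and DESeq2 called it (adjusted p = 1.33e-04). By p, CALR was in rank 4 of 13028 genes with the library-set term, and per kilobase of annotated exon it had the highest level of the 44 genes over the 6 libraries, 525 CPM per kb, followed by P4HB with 502.

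UGGT1, which puts glucose back on misfolded glycoproteins so that they return to calreticulin, had 97.8, 166 and 166 CPM in IKZF1-ko replicates 1, 2 and 3, against 202, 130 and 203 CPM in NT control replicates 1, 2 and 3. The groups overlapped, since NT control replicate 2 was under IKZF1-ko replicates 2 and 3, and the log2 fold change was -0.32 (adjusted p = 2.67e-04). PDIA3, the disulfide isomerase that works with calreticulin and calnexin, had 347, 425 and 416 CPM in IKZF1-ko, against 460, 408 and 487 CPM in NT control, with a log2 fold change of -0.19 (adjusted p = 0.00868). That call was lost without NT control replicate 3 (adjusted p = 0.0568) or IKZF1-ko replicate 3 (0.0781). CANX, which encodes the membrane-bound calnexin, had 981, 811 and 848 CPM in IKZF1-ko, against 862, 971 and 866 CPM in NT control. Its groups overlapped and its log2 fold change of -0.03 did not pass (adjusted p = 0.67).

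**Figure D2:**
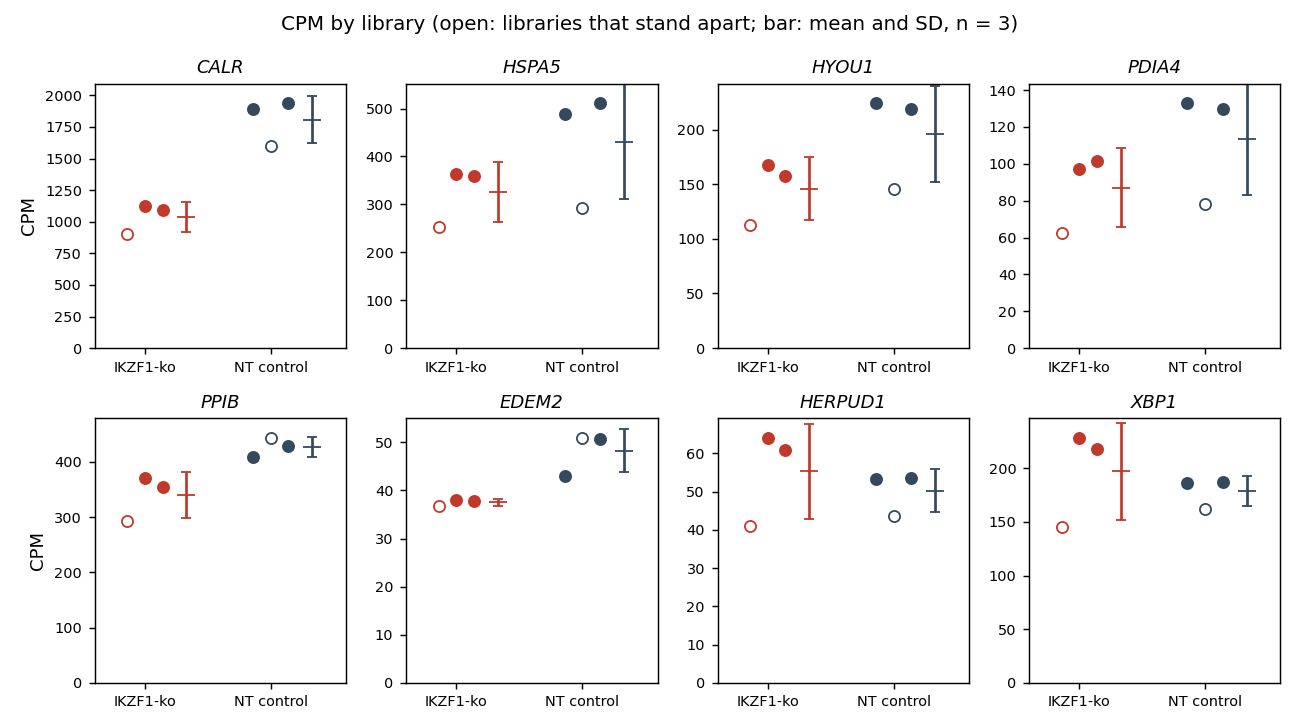
CPM of 8 members in each library (vertical axes from 0), with IKZF1-ko left of NT control, open points for the libraries that stand apart, and bars for mean and SD (n = 3). The groups separate for CALR, PPIB and EDEM2, while for HSPA5, HYOU1 and PDIA4 the open NT control point lies below the filled IKZF1-ko points.

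In the HSP70 and HSP90 system 3 of 8 genes fell and 0 rose. HSPA5, which encodes BiP, the main HSP70 chaperone of the ER and a standard readout of the unfolded protein response, had 253, 363 and 360 CPM in IKZF1-ko replicates 1, 2 and 3, against 489, 293 and 511 CPM in NT control replicates 1, 2 and 3. Its log2 fold change was -0.39 (SE 0.053, edgeR adjusted p = 1.22e-04) with the library-set term, -0.47 in the 4 libraries and -0.29 with the surrogate variable. HYOU1, a large HSP70 relative that helps BiP to release nucleotide, had 113, 167 and 157 CPM in IKZF1-ko, against 224, 146 and 219 CPM in NT control, with a log2 fold change of -0.42 (adjusted p = 1.92e-05). In both genes the lowest NT control library, replicate 2, was under IKZF1-ko replicates 2 and 3. HSP90B1, which encodes GRP94, the HSP90 chaperone of the ER, had 757, 684 and 684 CPM in IKZF1-ko, against 781, 770 and 830 CPM in NT control. Its groups did not overlap, but the difference was small, with a log2 fold change of -0.17 (adjusted p = 0.0342) that was not called without any 1 of the libraries NT control replicate 1 (adjusted p = 0.107), NT control replicate 3 (0.196), IKZF1-ko replicate 2 (0.114) or IKZF1-ko replicate 3 (0.214). Exons of HSP90B1, DNAJB11, DNAJC10, SYVN1, ATF6B and SSR1 overlap those of another gene in the same direction, so their counts are less certain. The cochaperone genes DNAJB9, DNAJB11, DNAJC3, DNAJC10 and SDF2L1, most of which encode J-domain partners of BiP, did not pass in either fit. Their log2 fold changes were -0.29 (SDF2L1, SE 0.13) to 0.01 (DNAJC3, SE 0.067) with the library-set term and -0.31 (DNAJB9, SE 0.16) to -0.04 (DNAJC3) in the 4 libraries. DNAJB9 and SDF2L1 were among the lowest in level, with means of 8.18 and 9.02 CPM over the 6 libraries.

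Among the folding enzymes and secreted folding factors 7 of 10 tested genes fell and 1 rose. PDIA4, a disulfide isomerase, had 62.4, 97.5 and 101 CPM in IKZF1-ko replicates 1, 2 and 3, against 133, 78.4 and 130 CPM in NT control replicates 1, 2 and 3, with a log2 fold change of -0.38 (adjusted p = 9.29e-05). MANF, a small secreted protein gene that is induced by ER stress, had 21.2, 30.8 and 29.9 CPM in IKZF1-ko, against 43.7, 26.4 and 43.96 CPM in NT control, with a log2 fold change of -0.47 (adjusted p = 4.53e-04). Both genes had the pattern of HSPA5, with NT control replicate 2 below IKZF1-ko replicates 2 and 3. PPIB, which encodes the proline isomerase cyclophilin B, had 293, 372 and 354 CPM in IKZF1-ko, against 408, 443 and 429 CPM in NT control, with a log2 fold change of -0.34 (adjusted p = 0.00183). Here the groups did not overlap, and NT control replicate 2 was the highest of the 6.

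PDIA6, another disulfide isomerase, had 633, 637 and 652 CPM in IKZF1-ko replicates 1, 2 and 3, against 711, 745 and 732 CPM in NT control replicates 1, 2 and 3, with no overlap and a log2 fold change of -0.19 (edgeR adjusted p = 0.00798). P4HB, the classic protein disulfide isomerase and the member with the most counts, had 2659, 2470 and 2368 CPM in IKZF1-ko, against 2647, 3218 and 2603 CPM in NT control, with a log2 fold change of -0.17 (adjusted p = 0.0164) that was not called without NT control replicate 1 (0.0531) or IKZF1-ko replicate 3 (0.111). IKZF1-ko replicate 1 lay above NT control replicates 1 and 3 for this gene. CRELD2, a gene of an ER-resident folding factor, had 11.3, 13.1 and 11.9 CPM in IKZF1-ko, against 15.4, 15.6 and 17.0 CPM in NT control, with no overlap and a log2 fold change of -0.40 (adjusted p = 0.0155, but 0.061 without NT control replicate 3 and 0.09 without IKZF1-ko replicate 3). FKBP2, a proline isomerase gene, had 24.96, 20.4 and 19.7 CPM in IKZF1-ko, against 25.3, 29.04 and 24.7 CPM in NT control, with a log2 fold change of -0.28 (adjusted p = 0.0272). The call of FKBP2 was lost without NT control replicate 1 (0.113) or 3 (0.0685) and without IKZF1-ko replicate 2 (0.0634) or 3 (0.137). ERO1B, an oxidase that recharges disulfide isomerases, was the member that rose, with 19.8, 12.5 and 14.9 CPM in IKZF1-ko, against 10.3, 16.5 and 10.7 CPM in NT control. Its groups overlapped, and its log2 fold change of 0.34 (adjusted p = 0.0468) was not called in the 4 libraries (0.0524), with the surrogate variable (0.193), or without NT control replicate 1 (0.161), NT control replicate 3 (0.101) or IKZF1-ko replicate 3 (0.243). ERP29 (-0.07, adjusted p = 0.396) and ERP44 (0.06, adjusted p = 0.669) did not pass.

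**Figure D3:**
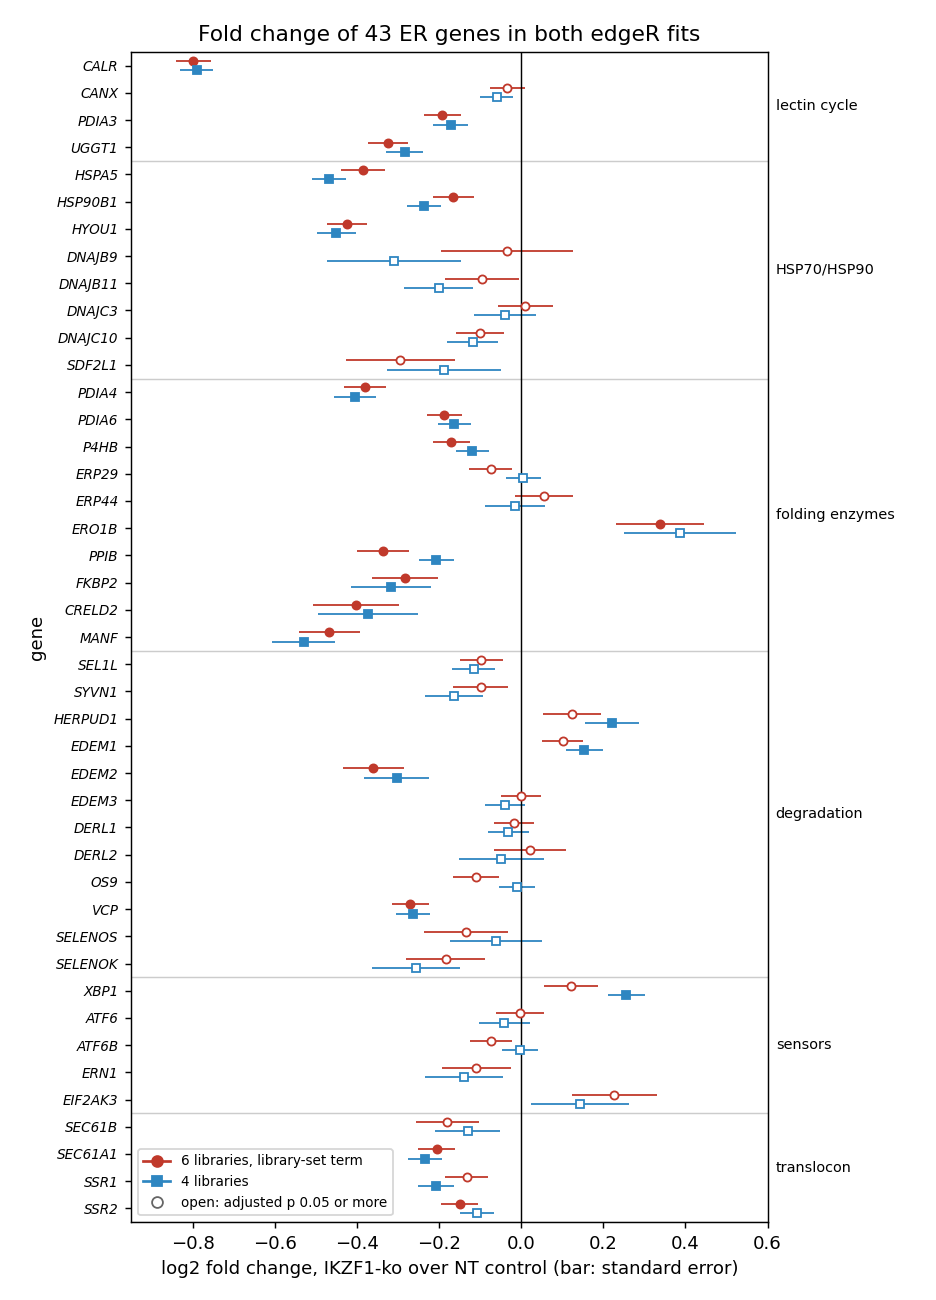
Log2 fold change (IKZF1-ko over NT control) with its standard error for the 43 tested members by role, from edgeR on 6 libraries with the library-set term (circles) and on 4 libraries (squares), filled where the adjusted p was under 0.05. CALR lies at -0.80 and -0.79, the other folding genes that fell with the library-set term have circles between -0.17 and -0.47, and the sensors span -0.14 to 0.26 over both fits, with the square of XBP1 filled at 0.26.

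Of the 12 degradation genes, 2 fell and 10 were not called. EDEM2, which trims mannose to mark glycoproteins for degradation, had 36.7, 38.1 and 37.9 CPM in IKZF1-ko replicates 1, 2 and 3, against 43.1, 50.9 and 50.7 CPM in NT control replicates 1, 2 and 3. The groups did not overlap, and the log2 fold change was -0.36 (SE 0.074, edgeR adjusted p = 0.00368). VCP, the ATPase that pulls proteins out of the ER membrane and has many other cellular tasks, had 188, 338 and 334 CPM in IKZF1-ko, against 394, 230 and 412 CPM in NT control, with a log2 fold change of -0.27 (adjusted p = 6.34e-04) that did not pass with the surrogate variable (-0.14, adjusted p = 0.0597). Again NT control replicate 2 was under IKZF1-ko replicates 2 and 3. HERPUD1, a stress-induced partner of the SYVN1 ligase, went the other way in part of the libraries, with 41.0, 64.0 and 60.8 CPM in IKZF1-ko, against 53.4, 43.7 and 53.7 CPM in NT control. It did not pass with the library-set term (log2 fold change 0.12, adjusted p = 0.272) and rose in the 4 libraries (0.22, adjusted p = 0.0203). EDEM1, another mannose-trimming gene, had 210, 208 and 214 CPM in IKZF1-ko, against 191, 210 and 189 CPM in NT control, and likewise rose in the 4 libraries alone (0.15, adjusted p = 0.0199). For the lectin gene OS9 the levels were 254, 233 and 225 CPM in IKZF1-ko and 233, 314 and 227 CPM in NT control, with no call (adjusted p = 0.224). The ligase pair SEL1L and SYVN1, the channel genes DERL1 and DERL2, EDEM3 and the selenoprotein genes SELENOS and SELENOK had no call in either fit, with log2 fold changes of -0.18 to 0.02 with the library-set term and -0.26 to -0.03 in the 4 libraries.

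None of the 5 sensor genes was called with the library-set term. XBP1, whose mRNA is spliced by IRE1, had 145, 228 and 218 CPM in IKZF1-ko replicates 1, 2 and 3, against 186, 162 and 187 CPM in NT control replicates 1, 2 and 3. The library that stands apart was the lowest of each group. Its log2 fold change was 0.12 (edgeR adjusted p = 0.258) over the 6 libraries and 0.26 (adjusted p = 1.92e-04) in the 4 libraries, where it rose while HSPA5 fell. Gene counts do not separate spliced from unspliced XBP1. ERN1, the gene of IRE1, had 46.2, 28.3 and 35.1 CPM in IKZF1-ko, against 37.2, 48.3 and 32.3 CPM in NT control (log2 fold change -0.11, adjusted p = 0.446). ATF6 had 73.3, 75.3 and 77.7 CPM in IKZF1-ko, against 82.8, 69.7 and 74.4 CPM in NT control (-0.002, adjusted p = 0.99), and its relative ATF6B had 205, 227 and 225 CPM in IKZF1-ko, against 230, 239 and 222 CPM in NT control (-0.07, adjusted p = 0.39). EIF2AK3, the gene of PERK, had 23.1, 16.2 and 18.8 CPM in IKZF1-ko, against 14.6, 17.9 and 17.0 CPM in NT control (0.23, SE 0.10, adjusted p = 0.16). In each of these 4 genes the groups overlapped. A p above the threshold does not show that the levels were equal, and activation of the sensors is not read from their mRNA.

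The translocon carries new proteins into the ER. SEC61A1, the pore subunit gene, had 192, 294 and 283 CPM in IKZF1-ko replicates 1, 2 and 3, against 338, 213 and 341 CPM in NT control replicates 1, 2 and 3, and fell (log2 fold change -0.21, edgeR adjusted p = 0.00631), but not without IKZF1-ko replicate 3 (0.0892) or with the surrogate variable (-0.11, adjusted p = 0.176). SSR2, a subunit of the translocon-associated complex, had 307, 287 and 291 CPM in IKZF1-ko, against 312, 362 and 310 CPM in NT control. Its groups did not overlap, yet its log2 fold change of -0.15 (adjusted p = 0.0392) was not called when any 1 of the 6 libraries was left out (adjusted p from 0.0715 without IKZF1-ko replicate 2 to 0.125 without IKZF1-ko replicate 3). SSR1, of the same complex, had 203, 202 and 208 CPM in IKZF1-ko, against 238, 201 and 236 CPM in NT control, and fell in the 4 libraries alone (-0.21, adjusted p = 0.00154). SEC61B was not called in either fit (-0.18, adjusted p = 0.132). It was called without IKZF1-ko replicate 2 (-0.26, adjusted p = 0.0439).

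Genes of the same pathway outside the 44 were read from 4 further lists. Of 24 tested other ER folding genes 1 fell and 0 rose with the library-set term, and it was PRDX4, a peroxidase gene of the ER, with 34.0, 59.9 and 57.6 CPM in IKZF1-ko replicates 1, 2 and 3, against 73.3, 43.8 and 78.9 CPM in NT control replicates 1, 2 and 3 (log2 fold change -0.37, edgeR adjusted p = 5.43e-04). Of 20 other degradation genes 1 fell and 0 rose, and it was AUP1 (-0.19, adjusted p = 0.0126), with all IKZF1-ko libraries (149 to 159 CPM) below all NT control libraries (175 to 180 CPM). Of 26 other translocon, signal peptidase and oligosaccharyltransferase genes 5 fell and 0 rose. DAD1 (-0.31) and RPN1 (-0.23), subunit genes of the enzyme that attaches sugars to new proteins, and SRPRB (-0.23), of the receptor that docks ribosomes, had the lowest adjusted p. These are 4.17%, 5% and 19.2% of the 3 lists, beside 6.62% of all tested genes, so the shares of the folding and degradation lists were not above that of all genes. In the 4 libraries 3, 5 and 7 genes of these lists fell (12.5%, 25% and 26.9%) and 0 rose, where 7.1% of all genes fell and 7.64% rose. The list medians with the library-set term were -0.07, -0.06 and -0.10, beside 0.002 for all tested genes.

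Genes of the PERK, ATF4 and CHOP list were mostly higher in the 4 libraries and mostly lower in the pair that stands apart, a difference that was not tested. The list is mixed, since it also holds CREB3L2, MBTPS1 and MBTPS2, which do not belong to the PERK branch. None of these was called with the library-set term, in the 4 libraries or with the surrogate variable. Of the 12 tested genes of the whole list 1 rose and 0 fell with the library-set term. It was DDIT4, a stress-induced inhibitor of mTOR signalling, with 80.9, 162 and 153 CPM in IKZF1-ko replicates 1, 2 and 3, against 81.6, 70.9 and 87.7 CPM in NT control replicates 1, 2 and 3 (log2 fold change 0.67, edgeR adjusted p = 1.5e-04). In the 4 libraries 7 of 13 tested genes rose and 0 fell, where 7.64% of all genes rose. In the pair that stands apart, which gives no test, 9 of 12 genes were lower in IKZF1-ko replicate 1 than in NT control replicate 2, with a median log2 difference of -0.23, as for the folding members (-0.23), beside 0.001 for all tested genes. The 7 genes that rose in the 4 libraries were DDIT4, DDIT3, TRIB3, ASNS, CHAC1, SESN2 and NUPR1, which are named after their values were seen. CHAC1, a glutathione-degrading enzyme gene, had 4.80, 35.4 and 33.2 CPM in IKZF1-ko, against 23.6, 6.88 and 21.7 CPM in NT control. DDIT3, the gene of CHOP, had 20.4, 19.2 and 19.0 CPM in IKZF1-ko, against 11.4, 22.9 and 11.1 CPM in NT control. In CHAC1, SESN2 and TRIB3 the library that stands apart was the lowest of its group, and in DDIT3 the highest. With the library-set term neither CHAC1 (0.42, adjusted p = 0.0502) nor DDIT3 (0.40, adjusted p = 0.0726) was called. With the surrogate variable 3 of 12 genes rose, where 4.38% of all genes did, and they were DDIT4, CHAC1 (0.76, adjusted p = 0.00192) and SESN2 (0.39, adjusted p = 0.0464). The regulator gene ATF4 was not called in either fit (-0.09, adjusted p = 0.258, and -0.02, adjusted p = 0.853, in the 4 libraries). NUPR1 had only 9, 38 and 25 counts in IKZF1-ko replicates 1, 2 and 3, against 3, 4 and 1 counts in NT control replicates 1, 2 and 3, and did not pass the filter over 6 libraries.

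**Figure D4:**
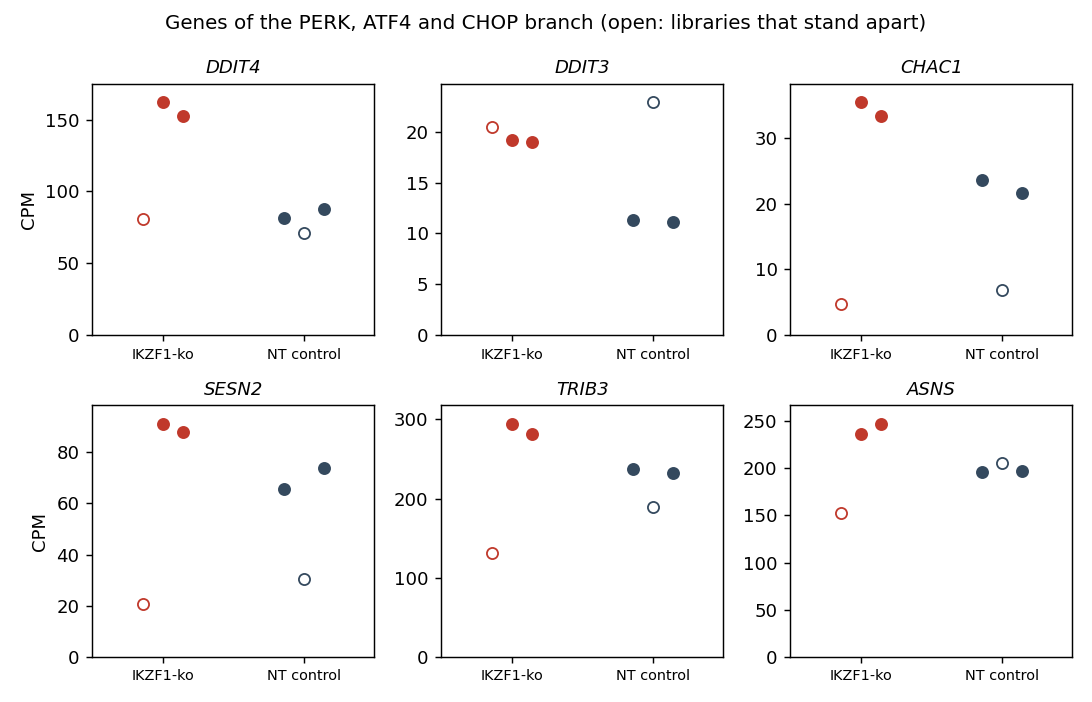
CPM of 6 genes of the PERK, ATF4 and CHOP list in each library (vertical axes from 0), IKZF1-ko left of NT control, with open points for the libraries that stand apart. The 6 were chosen from the genes of the list that rose in the 4 libraries. By that choice, the filled IKZF1-ko points lie above the filled NT control points in all 6 panels. The open IKZF1-ko point is below the open NT control point in 5 of them. Among genes not shown, the groups overlapped in the 4 libraries for ATF4, PPP1R15A and CREB3L2. IKZF1-ko was lower there for MBTPS1 and higher for ATF3, MBTPS2 and NUPR1.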

How the data were processed

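The authors deposited raw read counts per Ensembl gene for the 6 libraries, and 0 columns belonged to other samples. Poly(A) libraries were made with a stranded kit, per the labels' protocols. Trimmomatic, STAR and GRCh38 are named without versions, per the submitters' processing notes. Which counter, strand setting and annotation made the counts is not given in the sources used here. Counts of genes overlapped by others are therefore uncertain (7 members in the same direction and 17 in the opposite direction only). Of 58233 identifiers, 57392 were paired with a symbol through GENCODE 29.

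Genes passing filterByExpr were scaled by TMM and tested on all tested genes with edgeR 4.0.16 (R 4.3.3; quasi-likelihood, two-sided, Benjamini-Hochberg, threshold 0.05), on group alone, with a library-set term (the sign of the first principal component), and in the 4 libraries that do not stand apart. All adjusted p-values are from edgeR unless another tool is named. The fits were also run on simulated counts that took the library sets as known. That run cannot check the choice of sets or the kind of replicates. Alternatives were other scaling factors and filters, DESeq2 1.42.0, limma-voom (limma 3.58.1), a surrogate variable (sva 3.50.0), a replicate block and leaving out each library. Depth was 11300519 to 18214328 counts per library, so genes of few counts are the least precise. Levels are TMM-scaled CPM, and levels per kb divide by the annotated exon length.

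The members, the lists and the library-set term were chosen with earlier results of these data known. Values in every library are given for members called in the library-set or 4-library fit, for the 2 highest members by CPM of each role and for the sensors. From other lists, up to 3 called genes with the lowest adjusted p are named. Protein sequences were not analysed here.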

Additional observations from a re-analysis of the deposited data

How the results depend on the processing

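Of the 18 members called with the library-set term, 9 kept their call under all 16 alternatives run for each (CALR, EDEM2, HSPA5, HYOU1, MANF, PDIA4, PDIA6, PPIB and UGGT1), and no fold change reversed. The 16 alternatives are not independent checks. The sets defined without the members gave the identical fit. Without NT control replicate 2 or IKZF1-ko replicate 1, the set term fits the remaining library that stands apart exactly. Those 2 alternatives therefore come close to the comparison in the 4 libraries. On group alone DESeq2 called 1 member lower (0.0998% of all tested genes), where edgeR called 0 (0%). With the library-set term, the count of members that rose was 1, where 6.93% of all genes rose. It was 0 with RLE size factors (6.46% of all genes), 0 with DESeq2 (4.09%), 0 with limma-voom (6.95%) and 0 with the surrogate variable (4.38%). Leaving out 1 library at a time gave 10 to 17 members that fell, where 2.59% to 6.99% of all genes fell (10 and 2.59% without IKZF1-ko replicate 3). It gave 0 to 4 members that rose, where 3.47% to 7.72% of all genes rose. The 4 rose without NT control replicate 2 (7.67% of all genes) or IKZF1-ko replicate 1 (7.72%). In the 4 libraries this gave 11 to 16 that fell (11 without NT control replicate 3) and 1 to 3 that rose, with the lone library of a group assumed to vary like the others, and DESeq2 called 1 that rose. Correlations of deviations were -0.655, -0.689 and 0.588 for replicate numbers 1, 2 and 3. The libraries that stand apart carry different numbers and weigh on all of these values. Whether the numbers pair the samples can thus not be told from them. With a replicate block beside the library-set term, 20 members fell and 2 rose, where 11.4% and 11.2% of all genes did. That fit leaves almost no residual degrees of freedom. With the block on group alone 0 members changed, as did 0% of all genes. No block could be added in the 4 libraries, which leave no residual degrees of freedom. Over all tested genes, 862 fell with the library-set term, 460 with the surrogate variable, 1483 with the block and 347 without IKZF1-ko replicate 3. Scaling moved the median of all genes by at most 0.02 on the log2 scale. Depth limits genes of few counts, such as TXNDC5.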
